A study of Caenorhabditis elegans with 12 samples.

Results

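The heterochronic genes lin-14, lin-28, lin-29, lin-41, lin-42, lin-46 and hbl-1 were followed on 12 single-colour microarrays of adult Caenorhabditis elegans. These 7 genes were taken by name from the known developmental timing pathway, and the arrays held 12 probes for them among 43603 probes and 19814 genes. A probe counted as measured if all 3 arrays of some group showed it well above background. By that filter 9 of the 12 probes and 6 of the 7 genes were measured, among 13486 genes in all, and lin-14 was not.

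There were 3 arrays of each of 4 groups: daf-2(e1370) worms held at 25 °C for 12 h, N2 worms held at 25 °C for 12 h or for 3 h, and N2 worms that stayed at 15 °C. N2 is the Bristol wild-type strain, and e1370 is a temperature-sensitive allele of the insulin-like receptor gene daf-2. Worms of all 4 groups were raised at 15 °C with ample food, and the design text places the shift to 25 °C at the young adult stage. No daf-2 worms kept at 15 °C were measured, so the effect of strain could not be separated from that of warming in daf-2. RNA came from whole worms, so fewer cells of a type and less RNA per cell cannot be told apart. The labels give no age in hours. They also leave unsaid whether replicates came from different cultures, so a p-value here rests on array-to-array spread that may be technical.

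Heterochronic genes time the events of larval development. LIN-14, LIN-28, HBL-1 and LIN-41 act in turn in the larval stages, and microRNAs turn their messages down as larvae grow. When the last of these brakes is lifted, LIN-29 starts the adult programme of the skin, in which the seam cells fuse, moulting ends and adult collagens are made. All groups are labelled adult, and the levels of these genes bear on whether daf-2 and N2 worms were at the same stage at harvest.

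The replicates are called sets A, B and 1 after the sample titles, although another label numbers A and 1 alike as replicate 1. Each set filled 1 slide, and the slide of set 1 was scanned on a different day from the other slides. Groups kept their position from slide to slide, so position and group cannot be told apart. Detection differed by set, with 24254 to 26756 probes well above background per array in sets A and B and 35242 to 36999 in set 1. Levels are on the log2 scale with each array's 75th percentile at 0, and a gene passed the test where limma, fitted over all genes, gave an adjusted p under 0.05. Between daf-2 and N2 after 12 h the median difference of all genes was −0.14, and −0.38 when arrays were centred on their median. The daf-2 transcript itself differed by 0.14 ± 0.51 (SE, adjusted p = 0.854), which does not check the labels because e1370 is a point mutation. The yolk genes vit-1, vit-2, vit-4, vit-5 and vit-6, which adult hermaphrodites express in the intestine, had a mean level of 7.03 to 7.32 on daf-2 arrays and of 7.16 to 7.94 on N2 arrays of all 3 groups.

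hbl-1 encodes a zinc finger protein related to Drosophila Hunchback that holds back later larval and adult fates in the skin. It was the 1 member of the 6 that passed the test between strains. On the probe for F13D11.2a it read 0.47, 1.60 and 2.84 in daf-2 (sets A, B and 1). In N2 after 12 h it read −3.49, −3.40 and −1.70. In both strains the set 1 array was the highest, and the lowest daf-2 array stood above every N2 array. The share of all genes with arrays separated in this way was not counted. The mean was 1.64 ± 1.19 in daf-2 and −2.86 ± 1.01 in N2 after 12 h (SD, n = 3 each). The difference was 4.50 ± 0.65 (SE), or 22.6-fold higher in daf-2, with an adjusted p of 0.00105 from limma. Within sets A, B and 1 it was 3.95, 5.01 and 4.54, so the spread between sets was smaller for the difference than for the levels. It was the 71st largest rise among the 13486 genes.

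Among all genes tested, 22.0% passed the test between strains, 14.4% higher and 7.59% lower in daf-2. Of the heterochronic genes 1 of 6 passed, which is close to that background share. Their median difference was 0.15, against −0.14 over all genes, and −0.09 when arrays were centred on their median.

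**Figure D1:**
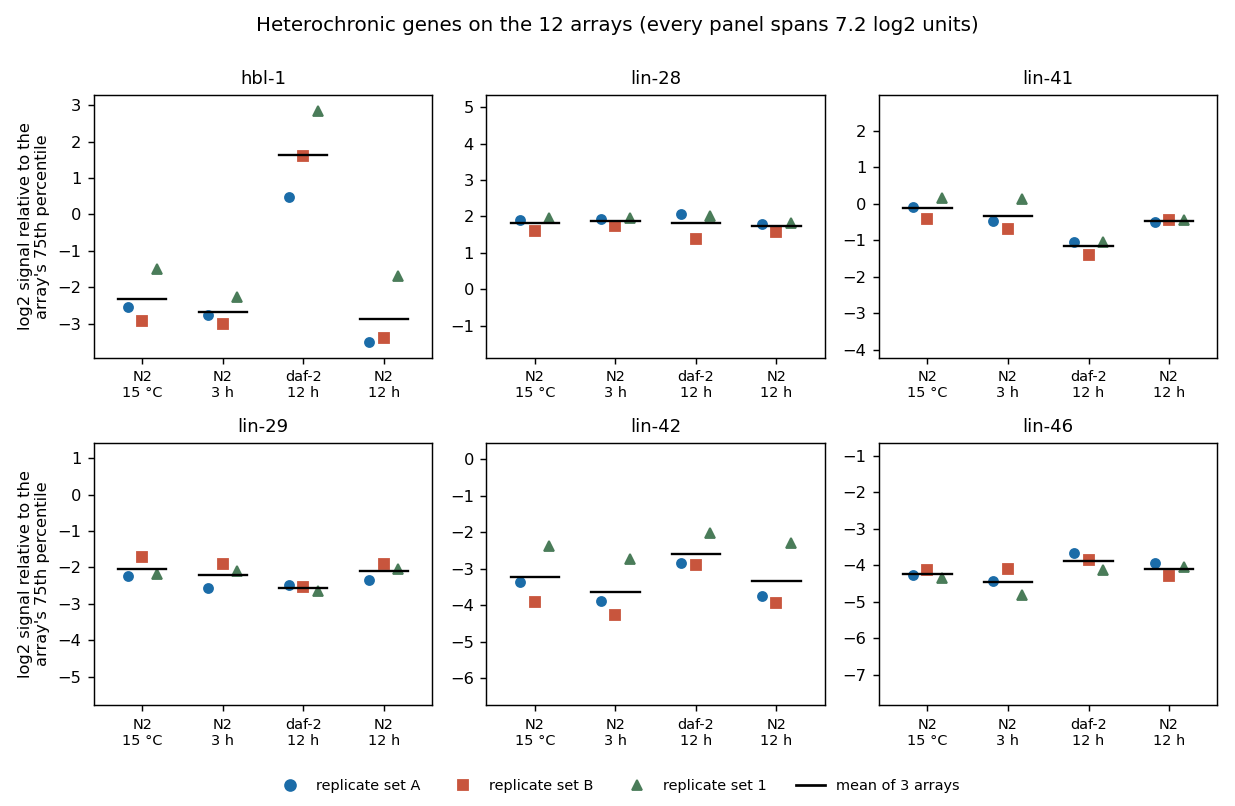
Signal of the 6 measured heterochronic genes on each of the 12 arrays (vertical axis, log2 with the array's 75th percentile at 0) by group, 1 point per array with a symbol for each replicate set and a line at the mean of 3 arrays. Every panel spans the same number of log2 units but is centred on its own gene, and hbl-1 shows daf-2 arrays at 0.47 to 2.84 above N2 arrays at −3.49 to −1.50.

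The other 2 hbl-1 probes passed the detection filter through daf-2 alone, so their values are given as a description and add no test of hbl-1. The probe for F13D11.2b read −3.22, −2.12 and −1.0 in daf-2, against −6.39, −7.52 and −5.46 in N2 after 12 h. The remaining probe, A_12_P154211, read −3.59, −2.30 and −0.91 in daf-2, against −7.05, −7.38 and −5.63 in N2 after 12 h. No daf-2 array overlapped an N2 array on either probe. Both probes were well above background on 3 of 3 daf-2 arrays and on 1 of 3 N2 arrays after 12 h, that of set 1, so the N2 levels lie largely at background and no size of difference is given.

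**Figure D2:**
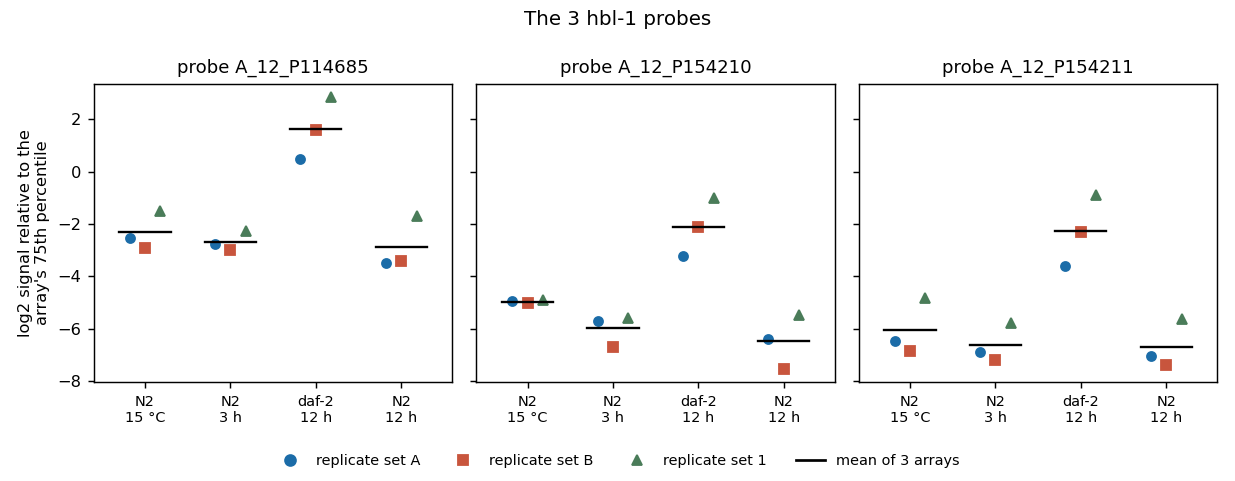
Signal of the 3 hbl-1 probes on each of the 12 arrays (vertical axis, log2 with the array's 75th percentile at 0), with a symbol for each replicate set and a line at the mean of 3 arrays. A_12_P114685 is the probe for F13D11.2a and A_12_P154210 that for F13D11.2b; on each probe the 3 daf-2 arrays lie above the 9 N2 arrays, and A_12_P154210 and A_12_P154211 were well above background on 1 of 3 N2 arrays after 12 h.

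In N2 alone, hbl-1 did not pass the test in any comparison of times. On the probe for F13D11.2a it read −2.55, −2.91 and −1.50 at 15 °C and −2.77, −3.01 and −2.27 after 3 h, beside the 12 h values above. The group means were −2.32 ± 0.74 at 15 °C, −2.69 ± 0.38 after 3 h and −2.86 ± 1.01 after 12 h (SD, n = 3 each). The order of the groups was thus daf-2, N2 at 15 °C, N2 after 3 h and N2 after 12 h, and the 3 N2 groups overlapped. N2 after 12 h minus N2 at 15 °C was −0.54, with a 95% interval from −1.98 to 0.90 (adjusted p = 0.802, limma). On the probe for F13D11.2b the 15 °C arrays lay at −4.93, −5.03 and −4.92, above all 12 h arrays, but 2 of the 3 were well above background at 15 °C and 1 of 3 after 12 h.

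lin-28 encodes an RNA-binding protein that sustains early larval fates and, in many animals, blocks maturation of the microRNA let-7. On the probe for F02E9.2a it read 2.08, 1.38 and 2.00 in daf-2, against 1.80, 1.58 and 1.83 in N2 after 12 h. The daf-2 arrays lay on both sides of the N2 arrays, with set B the lowest in each strain. The difference was 0.08 ± 0.20 (SE, adjusted p = 0.767, limma), with a 95% interval from −0.36 to 0.53, and its sign turned to −0.15 when arrays were centred on their median. In N2 the means were 1.83 ± 0.20 at 15 °C, 1.88 ± 0.12 after 3 h and 1.73 ± 0.14 after 12 h (SD, n = 3 each). A further lin-28 probe, A_12_P138785, was well above background only on the set 1 array of each group and was not tested.

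lin-46 encodes a scaffold-like protein that acts after lin-28 and limits HBL-1 activity. It read −3.66, −3.86 and −4.13 in daf-2, against −3.95, −4.29 and −4.05 in N2 after 12 h. The strains overlapped, and within set 1 the daf-2 array was the lower. The difference was 0.21 ± 0.21 (SE, adjusted p = 0.452, limma), with a 95% interval from −0.24 to 0.67. Its sign turned with quantile normalization (−0.06) and with median centring (−0.02). In N2 it averaged −4.25 ± 0.12 at 15 °C, −4.45 ± 0.36 after 3 h and −4.10 ± 0.18 after 12 h (SD, n = 3 each).

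lin-14 encodes a nuclear protein of the earliest larval stage. Its probe, for T25C12.1b, read −7.40, −7.19 and −5.33 in daf-2, against −7.16, −7.54 and −6.02 in N2 after 12 h. It was well above background only on the set 1 array of each group, 4 of 12 arrays in all. The strains overlapped, and the gene was not tested.

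lin-41 encodes an RNA-binding protein of the TRIM-NHL family that represses lin-29 in the larval skin and also acts in the growth of oocytes. On the probe for C12C8.3a it read −1.06, −1.41 and −1.05 in daf-2, against −0.49, −0.46 and −0.45 in N2 after 12 h. All daf-2 arrays lay below all arrays of the 3 N2 groups, but the share of all genes that separate in this way was not counted. The mean was −1.17 ± 0.21 in daf-2 and −0.47 ± 0.03 in N2 after 12 h (SD, n = 3 each). The difference of −0.71 ± 0.23 (SE) did not pass (adjusted p = 0.0512, limma). With the replicate set as a block it did (adjusted p = 0.0124, limma, 37.5% of all genes passing). Within sets A, B and 1 it was −0.56, −0.95 and −0.61. In the other N2 groups it read −0.09, −0.42 and 0.17 at 15 °C and −0.48, −0.69 and 0.14 after 3 h, so the spread between sets was wider there than after 12 h. In N2 lin-41 averaged −0.11 ± 0.29 at 15 °C, −0.34 ± 0.43 after 3 h and −0.47 ± 0.03 after 12 h (SD, n = 3 each). N2 after 12 h minus N2 at 15 °C was −0.35 (95% interval −0.86 to 0.16, adjusted p = 0.551, limma).

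The level of lin-41 was set beside oocyte markers, since the gene is also active in oocytes. Of 20 such markers, 1 was higher and 3 were lower in daf-2 (14.4% and 7.59% over all genes), and their median difference was −0.41. The caveolin gene cav-1 was higher by 1.49, the yolk receptor gene rme-2 was at −0.81, the eggshell gene cbd-1 at −0.69 and the RNA-binding protein gene puf-11 at −0.60. The mean level of the list was 4.40 to 4.78 on daf-2 arrays and 4.84 to 5.10 on N2 arrays after 12 h, with all 20 markers well above background on each of these arrays. The part of oocyte number or content in the lin-41 values was not tested.

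lin-29 encodes the zinc finger protein that starts the adult skin programme. The probe for W03C9.4a read −2.47, −2.54 and −2.64 in daf-2, against −2.33, −1.90 and −2.03 in N2 after 12 h. The difference was −0.47 ± 0.21 (SE, adjusted p = 0.140, limma), with a 95% interval from −0.94 to 0.01. The probe for W03C9.4b read −3.97, −4.19 and −3.88 in daf-2, against −3.53, −3.35 and −3.48 in N2 after 12 h. On both probes the daf-2 arrays lay below the N2 arrays after 12 h. How many of all genes separate in this way was not counted. The difference on the probe for W03C9.4b was −0.56 ± 0.19 (SE, adjusted p = 0.0701 over probes, limma), and 18.4% of the 26579 probes tested passed. With the replicate set as a block, lin-29 passed narrowly (adjusted p = 0.0494, limma, 37.5% of all genes passing). In N2 the W03C9.4a probe averaged −2.05 ± 0.28 at 15 °C, −2.19 ± 0.34 after 3 h and −2.09 ± 0.22 after 12 h (SD, n = 3 each).

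lin-42 encodes the worm homologue of the circadian protein Period, and its transcript oscillates with the larval moults. On the probe for F47F6.1a it read −2.86, −2.91 and −2.02 in daf-2, against −3.74, −3.95 and −2.31 in N2 after 12 h. Each daf-2 array was above the N2 array of its own set, but the N2 array of set 1 lay above the daf-2 arrays of sets A and B. The difference was 0.73 ± 0.56 (SE, adjusted p = 0.347, limma), with a 95% interval from −0.50 to 1.97. Within sets A, B and 1 it was 0.88, 1.04 and 0.28. With the replicate set as a block lin-42 passed (adjusted p = 0.0108, limma, 37.5% of all genes passing). It read −3.37, −3.92 and −2.39 in N2 at 15 °C and −3.89, −4.28 and −2.74 after 3 h, and set 1 was the highest in every group. In N2 lin-42 averaged −3.23 ± 0.78 at 15 °C, −3.63 ± 0.80 after 3 h and −3.33 ± 0.89 after 12 h (SD, n = 3 each).

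**Figure D3:**
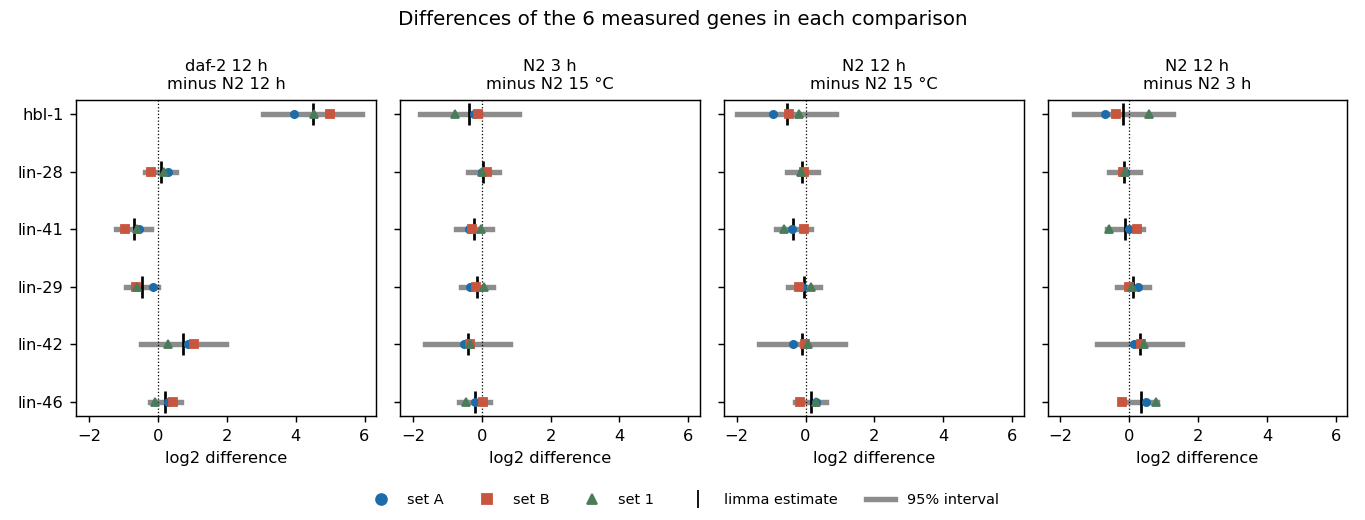
Differences of the 6 measured genes (horizontal axis, log2) in the comparison of strains and in the 3 comparisons within N2, with 1 symbol per replicate set, a tick at the limma estimate and a bar for its 95% interval. In the comparison of strains hbl-1 stands at 4.50 and lin-41 at −0.71, and within N2 every interval contains 0.

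Warming of N2 moved none of the 6 genes past the test. After 3 h against 15 °C the differences ran from −0.41 (lin-42) to 0.05 (lin-28), and 1.02% of all genes passed. For 12 h against 15 °C they ran from −0.54 (hbl-1) to 0.15 (lin-46), and 2.63% of all genes passed. For 12 h against 3 h they ran from −0.18 (hbl-1) to 0.35 (lin-46), and 2.09% passed. The counts over all genes were 138, 355 and 282 with limma, and at an unadjusted p under 0.05 they were 1246, 2124 and 1643. On the probes that represent the 6 genes, the smallest unadjusted p was 0.117 (limma), for lin-46 at 12 h against 3 h. These comparisons share N2 arrays with each other, and the 12 h arrays also serve as the N2 side of the comparison of strains.

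The genes whose signals ran most alike to each member over the 12 arrays were found by Pearson's r, given as a description because the arrays share groups and slides. For hbl-1 they were nphp-1, a gene of the ciliary transition zone (r = 0.992), and pqn-73 (r = 0.991), which differed between strains by 3.58 and 4.78. Over the 9 N2 arrays alone r with hbl-1 was 0.928 for nphp-1 and 0.946 for pqn-73. For lin-41 they were ifet-1, a translational repressor of the germ line (r = 0.968), and tsn-1, the Tudor staphylococcal nuclease gene (r = 0.956), at −0.60 and −0.66. For lin-42 they were the beta-tubulin gene tbb-4 (r = 0.962) and the histone gene his-2 (r = 0.954), at 2.07 and 0.30. For lin-29 they were gst-6, a glutathione S-transferase gene (r = 0.940), and tag-191 (r = 0.916), at −0.57 and −1.27. For lin-46 they were cpin-1 (r = 0.955) and afmd-1 (r = 0.935), at 0.22 and 0.27. For lin-28, itself at 0.08, they were lin-36 (r = 0.827) and cnc-9 (r = 0.812), at −0.37 and −0.46. Over the 9 N2 arrays alone r with lin-28 was 0.748 for lin-36 and 0.661 for cnc-9. For the genes named beside lin-29, lin-41, lin-42 and lin-46 it was 0.857 to 0.969.

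Of 25 other regulators and partners of the pathway, 21 were measured, and their median difference was 0.22. Of these, 4 passed as higher and 1 as lower in daf-2, close in share to the 22.0% of all genes. With the replicate block 7 were higher and 2 lower, and 37.5% of all genes passed. With median centring the list's median was −0.01. The nuclear receptor gene nhr-25, which acts in skin cells and moulting, was higher by 2.14 ± 0.23 (SE, adjusted p = 0.000254, limma). ain-1, which encodes a partner of the microRNA Argonautes, was higher by 0.94. sea-2, a zinc finger gene, was higher by 0.95, but it passed the detection filter through daf-2 alone and was well above background on 2 of 3 N2 arrays after 12 h. The exonuclease gene xrn-2, which degrades mature microRNAs, was lower at −0.51. puf-9, a Pumilio-family gene known to repress hbl-1, was higher by 0.53. daf-12, the nuclear receptor that ties the pathway to dauer signals, stood at 0.35 (adjusted p = 0.229). blmp-1, a transcription factor of the larval oscillation, stood at 1.13 (adjusted p = 0.100), and with the replicate block it passed (adjusted p = 0.00232). Within N2, nhr-25 was higher after 12 h than after 3 h by 1.64 (adjusted p = 0.0135, limma), and puf-9 was higher after 12 h than at 15 °C by 0.64 (adjusted p = 0.0459). Of a list of 6 microRNA loci of the pathway, 1 was found among the named probes, and it did not pass the detection filter.

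The outputs of the pathway in the skin were read on a list of stage-specific genes of adults, larvae and dauers. Of the 9 genes on it 5 were measured. Of these, 1 was lower in daf-2 and 0 were higher (7.59% and 14.4% over all genes). col-19, the adult collagen gene commonly used as the reporter of the larval-to-adult switch, stood at −0.60 ± 0.23 (SE, adjusted p = 0.0886, limma). With the replicate block it passed (adjusted p = 0.0412, limma, 37.5% of all genes passing). The gene that passed without the block was col-40, listed as a dauer gene, at −1.27 (adjusted p = 0.0304, limma). In each strain only 1 of 3 arrays had col-40 well above background. Among 5 yolk genes vit-1 was lower at −0.88 (adjusted p = 0.0168, limma) and 4 did not pass, with 7.59% lower over all genes.

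Of 16 genes of the larval moult cycle 15 were measured, with a median difference of 1.04. Higher in daf-2 were 7 of them (14.4% over all genes) and lower 0 (7.59%). The protease inhibitor gene mlt-11 was higher by 4.67 ± 0.82 (SE, adjusted p = 0.00301) and the collagen gene sqt-3 by 3.58 (limma). The collagen gene dpy-7 and the patched-related gene ptr-4 also passed the test, but they entered it through daf-2 alone and were well above background on 1 and 2 of 3 N2 arrays after 12 h. Where genes had to be well above background on all 12 arrays, 5 of 11 were higher (20.7% of all genes passing). The median there was again 1.04. The mean level of the list was −1.31 to −0.11 on daf-2 arrays and −2.88 to −1.77 on N2 arrays after 12 h. On N2 arrays it was −3.41 to −1.54 at 15 °C and −2.95 to −1.73 after 3 h, with set B the highest in both groups. That mean includes dpy-7 and ptr-4. Without set B 3 of the 15 passed (5.78% of all genes passing) and the median was 1.20. Without set A 4 passed (6.21% of all genes) and the median was 1.24. No moult gene passed in any comparison within N2. Among these 15 genes, the proteases nas-36 and nas-37 stood at −0.29 and −0.13 and did not pass.

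HBL-1 is known to act in seam cells and epidermis, and markers of these cells were read beside it. Of 15 seam and epidermis markers 13 were measured, with a median difference of 0.85. Higher in daf-2 were 7 of them (14.4% over all genes) and lower 0 (7.59%). Among the 9 that were well above background on all 12 arrays, 3 were higher (20.7% of all genes passing). The median of the 9 was 0.17. The hedgehog-related gene wrt-10 was higher by 3.65, the RUNX gene rnt-1 by 1.39 and the junction gene dlg-1 by 1.34. The related gene wrt-2 passed the test, but it entered through daf-2 alone and was well above background on 1 of 3 N2 arrays after 12 h. The list's mean level was −0.90 to −0.30 on daf-2 arrays and −1.96 to −1.43 on N2 arrays after 12 h. On each of these N2 arrays 11 to 13 markers were well above background. The mean includes wrt-2, as do the count and median over the 13 markers. All of these also include further markers that were not well above background on every array. The general epidermal factors elt-3 and lin-26 stood at 0.17 and 0.14 and did not pass. Without set B 0 of the 13 passed, while their median was 0.85 as before, and the genes that passed numbered 779 in place of 2962 over all genes. The part of these cells in the hbl-1 values was not tested.

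Of 11 vulva and uterus markers 10 were measured, and 5 were higher in daf-2 (14.4% over all genes), with a median of 1.03. Among the 7 well above background on all 12 arrays, 2 were higher (20.7% of all genes passing) and the median was −0.13. With the authors' series values 2 of 7 were higher. The zinc finger gene vab-23, well above background on 3 of 3 arrays in both strains, was higher by 2.18. The homeobox genes ceh-2, lin-11 and cog-1 passed the test but entered it through daf-2 alone, with 1, 2 and 1 of 3 N2 arrays well above background after 12 h. Without set A 1 of the 10 passed (6.21% of all genes passing) and the median was 1.26. Without set B 1 passed (5.78% of all genes) and the median was 1.07. The mean level of the 10 was −2.38 to −1.36 on daf-2 arrays and −2.65 to −2.41 on N2 arrays after 12 h. That mean includes ceh-2, lin-11 and cog-1.

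Embryos inside the worms also transcribe hbl-1 and many skin genes, so embryo markers were read beside them. Of 18, 16 were measured, with a median of 0.15 that turned to −0.08 with median centring. Higher in daf-2 were 3 of them (14.4% over all genes) and lower 0 (7.59%). The 3 higher genes were the muscle factor gene hlh-1 at 1.59, the Hox gene nob-1 at 1.20 and the gut factor gene elt-7 at 0.73. With the replicate block 4 were higher and 1 lower (37.5% of all genes passing). With sets A and B only 6 were higher (20.3% of all genes passing). The mean level of the 16 was −1.83 to −1.14 on daf-2 arrays and −1.79 to −1.38 on N2 arrays after 12 h, so the strains overlapped. Within set A the daf-2 array was the higher (−1.14 against −1.71), as it was within set B (−1.29 against −1.79). Within set 1 it was the lower (−1.83 against −1.38). Within N2 the list's mean level was −2.49 to −1.91 at 15 °C, −2.81 to −2.29 after 3 h and −1.79 to −1.38 after 12 h. The markers sdz-28, sdz-38, vet-6 and hlh-1 were higher after 12 h than after 3 h by 1.92, 1.56, 1.47 and 1.29 (limma). The part of embryos in the hbl-1 values of daf-2 was not tested.

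**Figure D4:**
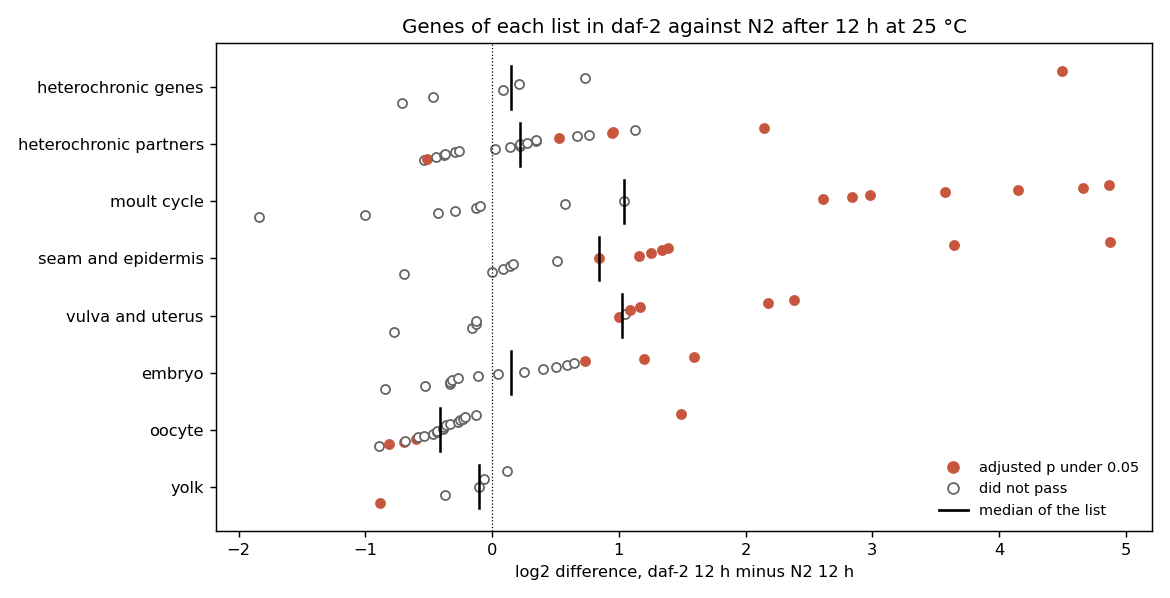
Difference between daf-2 and N2 after 12 h at 25 °C (horizontal axis, log2) for each measured gene of 8 lists, filled where the adjusted p was under 0.05, with a line at the list's median. hbl-1, at 4.50, lies near the moult gene mlt-11, at 4.67, while the medians of the oocyte and yolk lists are −0.41 and −0.10.

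Other tissue lists varied. Of 25 sperm markers 1, spe-6, was lower in daf-2, at −0.97 (7.59% lower over all genes). With array weights all 25 were lower (52.0% of all genes passing). In the fit reported the median of that list was −2.13, and it was −0.57 without set B. The list's mean level was −1.16 to 1.34 on daf-2 arrays and 1.03 to 3.81 on N2 arrays after 12 h. Within set B the daf-2 array was the lower (−1.16 against 3.81), as it was within set A (1.20 against 2.64). Within set 1 it was the higher (1.34 against 1.03). Set B held the highest array of each N2 group. Of 11 neuron markers 1, unc-10, was higher by 0.88 (14.4% higher over all genes). With the replicate block 3 were higher (37.5% of all genes passing). Of 11 muscle markers 0 passed (22.0% over all genes). Of 9 intestine markers 3 were higher and 4 lower (14.4% and 7.59% over all genes).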

How the data were processed

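Total RNA from whole worms was labelled with Cy3 and hybridised to 12 Agilent arrays, per the labels. Per the file headers, Agilent Feature Extraction 10.10.1.1 made the deposited processed signal, a background-subtracted intensity per spot on a linear scale that is not scaled between arrays. The deposited flags mark saturated, uneven and poorly detected spots (0 were saturated), and the deposited series table holds the same intensity times 1 constant per array.

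Of 45220 spots per array, 1417 controls were left out and 28 to 146 uneven spots were set to missing. Of 43603 probes, 34320 were matched to a gene by sequence name or accession through a RefSeq table (assembly WBcel235, newer than the build in the array headers and so read for names alone), and 9283 had no match. Signals were taken to log2, each array's 75th percentile was subtracted, and the spots of a probe were averaged. A gene was represented by its brightest probe that was well above background on all 3 arrays of a group. limma 3.58.1 in R 4.3.3 fitted 1 mean per group over all 12 arrays, and its two-sided p-values were adjusted over all genes, or over all probes where probes are named, by the Benjamini-Hochberg method. The fit was checked on a made-up data set with known answers. Figures were drawn with Python 3.11.15 and matplotlib 3.10.9. The number of arrays limits the precision.

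The members and lists were chosen with earlier results of these data known. Named genes are all members, up to 4 called genes of each list with the largest change, the 2 most alike genes per member, and daf-2. Outside that rule, xrn-2, daf-12, blmp-1, col-19, nas-36, nas-37, elt-3, lin-26 and the yolk genes were named after their values were seen. Same-set arrays deviated together from their group means in the N2 comparisons (r of 0.450 to 0.894 across genes). In the comparison of strains r was 0.389 in set A, −0.399 in set B and 0.129 in set 1, so pairing by set was uneven there. Calls between strains made with the replicate block carry this limit. The replicate set as a block, normalizations, filters, probe rules, array weights and left-out arrays were alternatives.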

Additional observations from a re-analysis of the deposited data

Results flagged for a closer look

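The lin-42 probe A_12_P104121, for the transcript F47F6.1c, entered no comparison because it did not pass the detection filter. It was well above background on 2 of 3 daf-2 arrays, those of sets B and 1, and on 1 of 3 N2 arrays after 12 h, that of set B, against 0 of 3 at 15 °C and 0 of 3 after 3 h. Its signals were −7.40, −4.57 and −6.63 in daf-2 (sets A, B and 1) and −6.38, −5.02 and −9.78 in N2 after 12 h. Within sets A, B and 1 the difference was −1.02, 0.45 and 3.15, so the sets did not share a direction.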

How the results depend on the processing

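hbl-1 passed between daf-2 and N2 after 12 h under all 23 alternatives run, with differences of 3.90 to 5.08 and adjusted p up to 0.0451 (limma, without set B). Of the 23, 2 are its other probes, which entered through daf-2 alone and add no test. The alternative that averaged a gene's probes also includes those 2 probes. The number of heterochronic genes that passed was 1 of 6 in the fit reported, with the share over all genes (22.0%) in brackets here and below. It was 3 with quantile normalization (21.1%) and 2 with normexp and quantile normalization (22.3%). Where probes had to be well above background on all 12 arrays it was 2 (20.7%). It was 2 with array weights (52.0%), 2 with only the groups compared (16.9%) and 3 with sets A and B only (20.3%). With the replicate block it was 4 as a fixed term (37.5%) and 3 as a random one (36.9%). It stayed at 1 under the other alternatives (5.78% to 23.6%), and was 1 without any single array. lin-41 passed under 8 of 21 alternatives (adjusted p 0.00235 to 0.274), lin-29 under 3 of 22 (0.0371 to 0.381) and lin-42 under 2 of 21 (0.0108 to 0.664); their directions held throughout. lin-28 changed sign under 5 of 21 and lin-46 under 2 of 21, without passing. The causes were not tested. Within N2 the count was 0 under every alternative run. Over all genes 2962 passed between strains, 5054 with the fixed replicate block, 7019 with array weights, 1650 with median centring, 837 without set A, 779 without set B, and 1597 and 1712 without the N2 arrays after 12 h of sets A and B. Over these alternatives the higher moult genes numbered 3 to 8, the higher seam and epidermis markers 0 to 8, and the lower sperm markers 0 to 25. lin-14 and 2 further probes were limited by signal too close to background.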
